A study of Mus musculus with 10 samples.

Results

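In mouse embryonic stem cells (ES cells), 91 of 31551 named genes on an Agilent expression array were far above the wild-type line in both lines that lack Dnmt1 and were not raised in 3 other lines with altered DNA methylation machinery. The members were chosen on the values themselves. On the deposited log2 table, a gene was kept when the means of DNMT1KO and Dnmts TKO were each at least 2 above J1, when J1_PRDM14OE, J1_PRDM14OE_DNMT3B and DNMT3BKO were each less than 0.5 above J1, and when its probe was well above background on the DNMT1KO and Dnmts TKO arrays. Of the 31551 genes, 479 were at least 2 above J1 in both lines and 468 of these were also above background there. The limit on the other 3 lines then dropped 377 genes and left the 91. Every difference of a member from J1 below is therefore a description of the choice and carries no test.

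The groups number 6, each a single cell line, and were measured on 10 one-colour arrays. J1 (Line J1, 2 arrays) is wild-type. J1_PRDM14OE (Line JP-23, 2 arrays) carries the wild-type genotype and stably expresses Prdm14, a germ-cell and pluripotency regulator, and J1_PRDM14OE_DNMT3B (Line JP-23+3b-3, 2 arrays) stably expresses Prdm14 together with Dnmt3b1, an isoform of a de novo DNA methyltransferase. DNMT3BKO (Line 8bb, 2 arrays) is Dnmt3b-/-, DNMT1KO (Line 36, 1 array) is Dnmt1-/-, and Dnmts TKO (Line 19-1, 1 array) is Dnmt1-/-Dnmt3a-/-Dnmt3b-/-. All lines were grown without feeder cells in medium with foetal calf serum and leukaemia inhibitory factor. Each genotype is a single line, so a property of the line and an effect of the genotype cannot be told apart, and DNMT1KO and Dnmts TKO have no replicate. Nothing in the labels says that replicates are separate cultures. The p-values therefore measure array-to-array spread alone, and this spread may be technical.

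Dnmt1 is the maintenance DNA methyltransferase, which copies methylation of CpG dinucleotides onto the new strand after replication. Dnmt3a and Dnmt3b place methylation de novo. In ES cells and somatic cells, promoters of many germline genes, cancer-testis antigens on the X chromosome and endogenous retroviruses are methylated and silent, and Dnmt1 loss is known to reactivate some of them. Prdm14 is known to repress Dnmt3b in ES cells.

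Values below are log2 intensities minus the 75th percentile of the same array, called levels, so that 0 is the intensity at that percentile and 1 unit is a doubling. Levels of different genes are not compared with each other. The targeted genes followed the knockout labels. The Dnmt1 probe read 1.30 to 1.83 on the 8 arrays of the other lines, -2.68 in DNMT1KO and -3.15 in Dnmts TKO, and the Dnmt3a probe fell out of the range above background only in Dnmts TKO, at -6.38. Dnmt3b read 7.59 in J1 and 7.65 in DNMT1KO against 1.66 in DNMT3BKO and 1.99 in Dnmts TKO. The probes for the transgenes did not show overexpression. Prdm14 averaged 0.01 in J1, -4.17 in J1_PRDM14OE and -6.39 in J1_PRDM14OE_DNMT3B, and Dnmt3b averaged 5.02 and 4.13 in those lines. The sources used here do not say whether these probes lie in the part of the gene that the transgenes carry, so they do not check those labels. Pou5f1 (5.21 to 6.22), Nanog (5.73 to 6.59) and Sox2 (2.72 to 4.22), which define ES cells, were above background on all 10 arrays.

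On the level scale the 91 genes lay a median of 3.07 above J1 in DNMT1KO (1.83 to 6.48) and 2.89 above J1 in Dnmts TKO (1.84 to 6.44). Over all 20459 genes tested the medians were -0.13 and -0.07. Against J1 replicate 1 alone, the J1 array on the slide that also held DNMT1KO and Dnmts TKO, the medians of the 91 genes were 3.17 and 2.87. On that slide J1 replicate 1 was scanned in pass 1, and DNMT1KO and Dnmts TKO in pass 2. An effect of the scan pass on these differences cannot be told apart from one of the lines. Many members were undetected in wild-type cells: 48 were below background on both J1 arrays, 14 on 1 of them and 29 on neither. For 47 genes the DNMT1KO and Dnmts TKO arrays were the only ones of the 10 with signal above background, and 21 genes were above background on all 10. Where J1 was below background on both arrays, the fold is given as "at least", since J1 then gives a bound only. The bound on each J1 array is the larger of what the dim probe read and the faintest signal still scored as above background. In bulk RNA, more cells expressing a gene and more RNA per cell cannot be told apart. All members passed the filter on dim probes through DNMT1KO and Dnmts TKO, as the rule required.

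**Figure D1:**
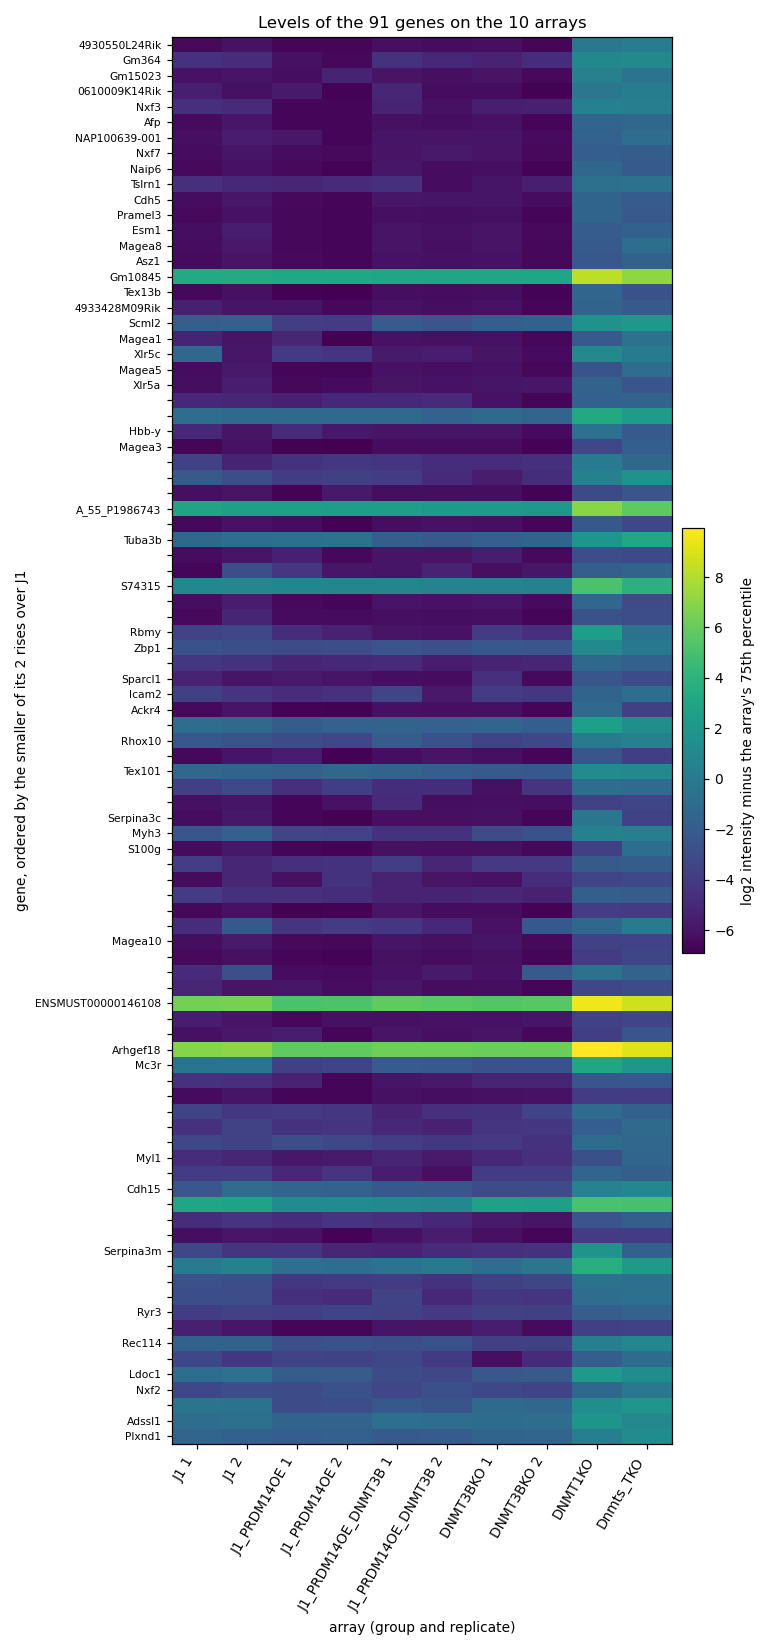
Levels of the 91 genes (rows, ordered by the smaller of the DNMT1KO and Dnmts TKO differences from J1) on the 10 arrays (columns), as log2 intensity minus the 75th percentile of the array, with names beside the 20 first rows, genes on a list and genes called between Dnmts TKO and DNMT1KO. The DNMT1KO and Dnmts TKO columns are brighter than the other 8 in every row, as the rule requires, and 47 rows are above background in those 2 columns alone.

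The rule set a ceiling but no lower limit for the other 3 lines. Readings below J1 there can therefore follow from the choice, and the matching values over all genes are not given here. Of the 29 members above background on both J1 arrays, the median relative to J1 was -0.78 in J1_PRDM14OE, -0.72 in J1_PRDM14OE_DNMT3B and -0.78 in DNMT3BKO, and 14, 11 and 7 of them were at least 1 below J1. Over all 91 genes the medians were -0.49, -0.29 and -0.30, but 53, 63 and 58 genes were above background on no array of these lines, so those medians mostly set undetected readings against each other. Near the rise threshold, the last genes inside on the deposited values were Gm6329 (2.026), Adssl1 (2.042) and Cd3d (2.048), and the first outside were Zfy1 (1.897), ENSMUST00000144826 (1.863) and H2-Oa (1.851). Near the ceiling of 0.5, Plb1 (0.484), Zbp1 (0.483) and the unnamed probe A_55_P1985344 (0.47) were just inside, and Hkdc1 (0.506), Olfr1259 (0.507) and Ccdc152 (0.522) just outside.

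**Figure D2:**
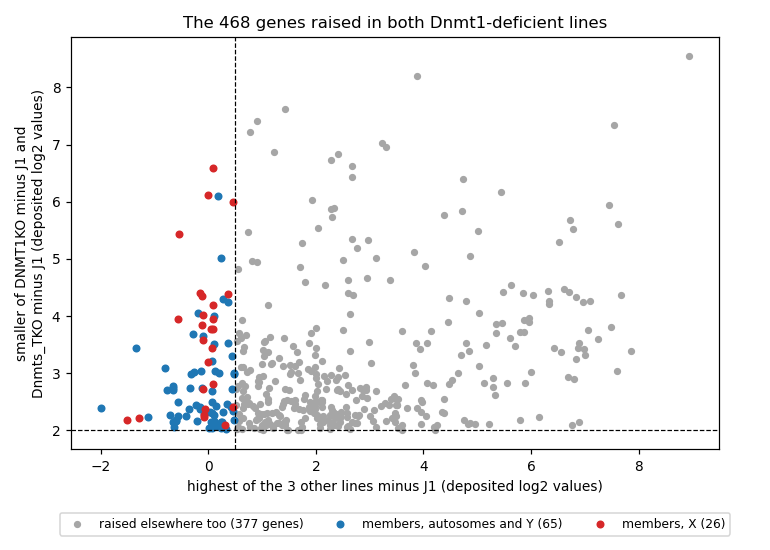
The 468 genes that were at least 2 above J1 in both DNMT1KO and Dnmts TKO, plotted by the highest of the 3 other lines minus J1 (x axis) and the smaller of the DNMT1KO and Dnmts TKO differences (y axis), both in deposited log2 values, with the thresholds of 0.5 and 2 as dashed lines. The 91 members lie left of 0.5, with the 26 X-linked ones in red, and the 377 genes raised elsewhere too lie to the right, up to 8.55 on the y axis.

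The X chromosome held 26 of the 91 members. That is 3.1% of its 839 tested genes, against 64 of 19360 (0.331%) on the autosomes and 1 of 11 on the Y chromosome. X-linked genes made up 28.6% of the members, 12.2% of the 377 genes that were raised in the same lines and elsewhere too, and 4.1% of all genes tested. These shares describe position, which the rule did not use, and neighbouring genes are not independent.

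Several X-linked members belong to cancer-testis families, whose normal expression is in male germ cells. Magea1, Magea3, Magea5 and Magea8, melanoma antigen family members, lay within 140.1 kb (mm9 chrX:151383104-151523228), where 4 of the 5 genes tested were members. Magea8 (probe at chrX:151420352-151420411) read -6.34 and -5.77 in J1, -6.55 and -6.63 in J1_PRDM14OE, -6.04 and -6.21 in J1_PRDM14OE_DNMT3B, and -6.05 and -6.57 in DNMT3BKO. It read -2.15 in DNMT1KO and -0.80 in Dnmts TKO, at least 3.89-fold and at least 9.87-fold over J1. Only the DNMT1KO and Dnmts TKO arrays were above background, and the same held for Magea1, Magea3, Magea5 and Magea10. Magea5 rested at -6.36 and -5.78 in J1 and read -2.56 in DNMT1KO and -0.88 in Dnmts TKO. Magea1 read -5.29 and -6.01 in J1, -2.12 in DNMT1KO and -0.54 in Dnmts TKO. Of 17 Mage genes tested 5 were members (29.4%), against 0.445% of all genes tested. Magea genes are close copies of each other, so their probes may share signal.

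A second group of neighbours on X spanned 1128 kb (mm9 chrX:131479079-132607052) and held Nxf2, Gm15023, Pramel3, Nxf7 and Nxf3 among 19 genes tested. The Nxf genes encode relatives of the general mRNA export factor, and Pramel3 belongs to a family of germline-expressed antigens. Nxf3 (chrX:132606993-132607052) read -4.62 and -4.82 in J1, -6.68 and -6.64 in J1_PRDM14OE, -5.25 and -6.13 in J1_PRDM14OE_DNMT3B, -5.53 and -5.41 in DNMT3BKO, 0.47 in DNMT1KO and 0.27 in Dnmts TKO. It was at least 23.8-fold and at least 20.8-fold over J1, with all 8 other arrays below background. Nxf2 differed in that it was above background on every array: it read -3.34 and -2.91 in J1, -1.21 in DNMT1KO (3.77-fold) and -0.24 in Dnmts TKO (7.39-fold). The 14 genes in this span that are not members had medians of 0.29 and 0.17 relative to J1 in DNMT1KO and Dnmts TKO, and included Gm5128 at 7.69 and 6.85.

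Xlr5a, Xlr5c and Magea10 lay in 904.8 kb near the Xlr cluster, a set of lymphocyte-regulated X-linked genes with relatives in meiosis. The 12 tested genes there that are not members had medians of 3.42 in DNMT1KO and 2.26 in Dnmts TKO relative to J1. They were not uniform, since Cetn2 (-0.22 and -0.12) and Nsdhl (-0.18 and -0.11) lay slightly below J1. Xlr4a (7.75 and 6.69) and Xlr3b (7.53 and 6.48) were among them, and the rule dropped Xlr3b because it was also 2.63 above J1 in J1_PRDM14OE. Xlr5c is the least even member in wild-type cells: its J1 arrays read -1.25 and -5.87, while DNMT1KO read 1.04 and Dnmts TKO -0.05. Of 31 tested genes on a list of X-linked germline genes, 10 were members, 22 were at least 2 above J1 in both lines with signal above background there, and 10 of those 22 were 0.5 or more above J1 in J1_PRDM14OE. Leaving out the 10 members, which were chosen on this contrast, limma with Benjamini-Hochberg adjustment called 16 of the other 21 higher and 0 lower in DNMT1KO against J1, where 31.3% of all genes were called and 14.7% were called higher. In Dnmts TKO against J1, 15 of the 21 were called higher and 1 lower, where 31.7% of all genes were called and 15.6% were called higher. The list was written with earlier results of these data known.

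Further X-linked members include genes without a well-established role. 4930550L24Rik read -6.52 and -6.07 in J1, -0.16 in DNMT1KO and 0.14 in Dnmts TKO (at least 15.4-fold and at least 19.0-fold). Gm364 (chrX:54717491-54717550) read -4.53 and -4.81 in J1, 0.94 in DNMT1KO and 0.99 in Dnmts TKO (at least 33.1-fold and at least 34.1-fold). Neither was above background on any of the other 8 arrays. Tslrn1, a testis transcript 799.8 kb from Ldoc1 on X, read -4.59 and -5.06 in J1, -0.69 in DNMT1KO and -0.64 in Dnmts TKO, with no other array above background. Transcripts known by a clone or probe name only had the same pattern, NAP100639-001 (at least 5.59-fold and at least 9.34-fold) and 4933428M09Rik (at least 5.96-fold and at least 3.99-fold) on X and 0610009K14Rik (at least 14.5-fold and at least 19.7-fold) on chromosome 4. Scml2, a Polycomb-related protein of the male germline, was instead detected on all 10 arrays, at -1.84 and -1.75 in J1, 1.75 in DNMT1KO (11.6-fold) and 2.10 in Dnmts TKO (14.9-fold). Tex13b, a testis-expressed gene, read -6.56 and -6.19 in J1, -1.44 in DNMT1KO and -2.70 in Dnmts TKO. Rhox10 was the only member among 14 tested genes on a list of the reproductive homeobox cluster, and averaged -2.42 ± 0.21 (SD, n = 2) in J1 and read 0.08 and 0.50 in the Dnmt1-deficient lines. On the deposited values 6 other Rhox genes (Rhox2c, Rhox2e, Rhox2h, Rhox4a, Rhox4e and Rhox4g) were at least 2 above J1 in both lines, and the rule dropped them because their highest other line was 1.712 to 2.672 above J1.

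Autosomal germline genes were fewer. Asz1, which acts in the piRNA pathway of male germ cells (chr6:18005508-18021991 on mm9, the span of a probe that crosses a splice junction), read -6.42 and -6.04 in J1 and stayed between -6.63 and -6.09 in the 6 arrays of the other 3 lines. It read -2.35 in DNMT1KO and -1.66 in Dnmts TKO, at least 3.38-fold and at least 5.46-fold over J1. Tex101, a sperm-surface protein, was detected on all arrays at -1.36 and -1.50 in J1, 1.23 in DNMT1KO (6.33-fold) and 1.02 in Dnmts TKO (5.47-fold). Tuba3b, a testis alpha-tubulin, read -1.20 and -0.84 in J1, 1.97 in DNMT1KO (7.95-fold) and 3.19 in Dnmts TKO (18.6-fold). These were the 3 members among 61 tested genes of a list of methylation-sensitive germline genes, written with earlier results of these data known. Of the 58 that are not members, 34 (58.6%) were called higher and 3 lower in DNMT1KO against J1, where 14.7% of all genes were called higher and 16.6% lower. In Dnmts TKO against J1, 34 were called higher and 5 lower, where 15.6% and 16.1% of all genes were. Of that list, 19 genes were at least 2 above J1 in both lines, and 16 of the 19 were also 0.5 or more above J1 in J1_PRDM14OE, 10 in J1_PRDM14OE_DNMT3B and 10 in DNMT3BKO. Tex11, Piwil2 and Hormad1, for example, were 2.46, 2.76 and 2.44 above J1 in DNMT1KO and 2.56, 3.47 and 2.60 above J1 in J1_PRDM14OE.

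Rec114, which is needed for meiotic DNA breaks, and Ctcfl, the germline paralogue of the insulator protein CTCF, were on no list. Rec114 read -1.69 on both J1 arrays, -2.81 and -2.72 in J1_PRDM14OE, -2.89 and -2.69 in J1_PRDM14OE_DNMT3B, and -3.74 and -3.73 in DNMT3BKO. It read 0.28 in DNMT1KO (3.91-fold) and 0.88 in Dnmts TKO (5.93-fold), so the other 3 lines lay below J1 while the Dnmt1-deficient lines lay above it. Ctcfl read -3.31 and -4.16 in J1, -1.78 in DNMT1KO (3.89-fold) and -0.98 in Dnmts TKO (6.74-fold), and its DNMT3BKO arrays read -6.24 and -4.83. Its second J1 reading was not above background, so these folds rest partly on an undetected value. The Y-linked Rbmy, an RNA-binding protein of male germ cells encoded by a multicopy family, read -3.44 and -3.35 in J1, 2.56 in DNMT1KO (62.4-fold) and -0.61 in Dnmts TKO (6.90-fold).

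**Figure D3:**
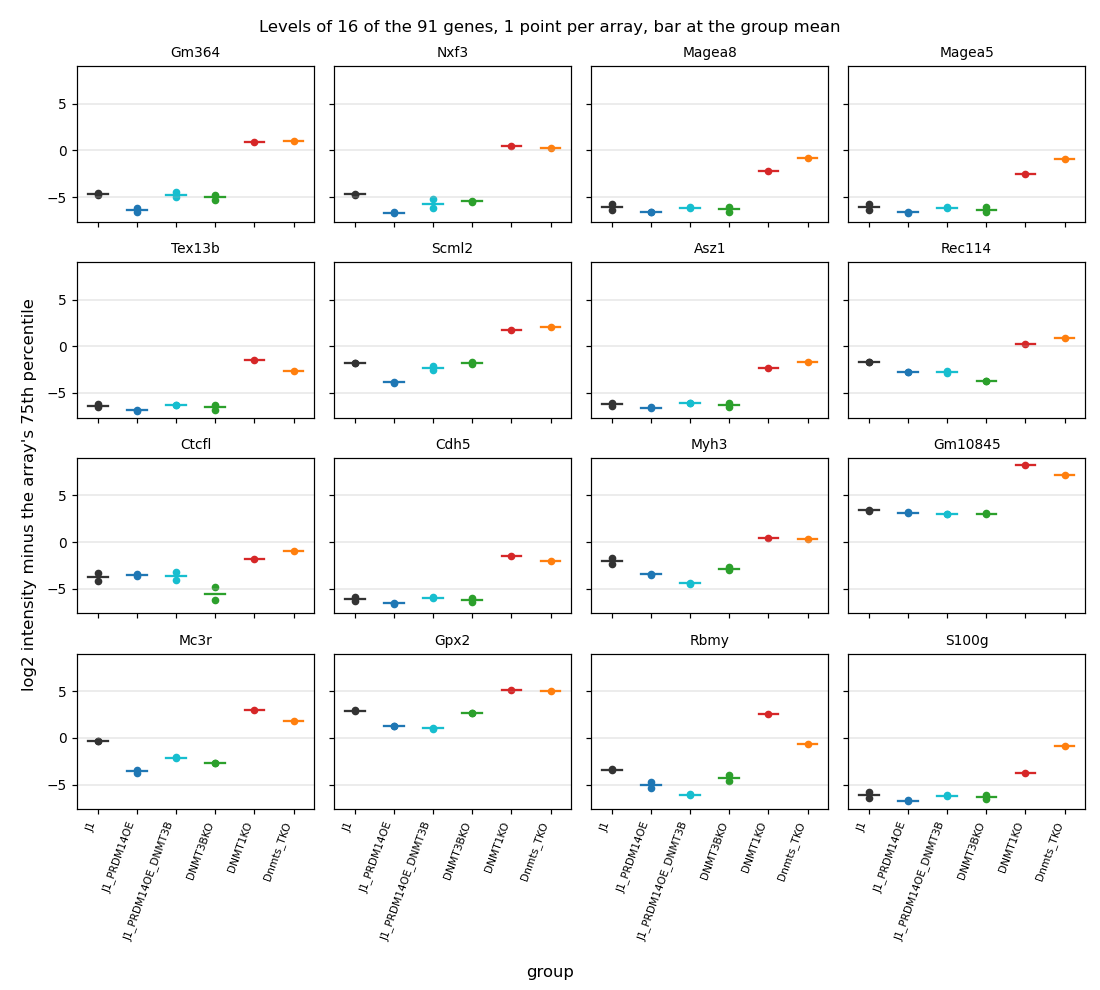
Levels of 16 of the 91 genes in the 6 groups, 1 point per array with a bar at the group mean, on the scale of log2 intensity minus the 75th percentile. DNMT1KO and Dnmts TKO are the highest in every panel, Mc3r and Rec114 show the other 3 lines below J1, and Rbmy and S100g show the Dnmt1-deficient lines apart from each other.

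CpG dinucleotides are the substrate of Dnmt1, and members differed widely in how many they hold before the start site. RefSeq start sites (GRCm38.p6, another build than the mm9 of the probes) were found for 63 of the 91 genes. The 250 bases before them, on the gene's strand, held a median of 5 CpG dinucleotides and an observed over expected CpG ratio of 0.39, against 14 and 0.67 over 12277 tested genes. The median GC share was 49.2% against 58.8%. X-linked members had a median of 5 CpG, and all 503 tested X-linked genes with a window had 9. A ratio of at least 0.6, a usual mark of CpG-rich promoters, was reached by 12 members (19.0%) against 58.3% of all genes, and 10 members (15.9%) had no CpG in the window against 2.29%. Members below background in J1 had a median ratio of 0.37 (36 genes) and those above background on a J1 array 0.48 (27 genes). Both sets lay under the median of all genes, and the second includes genes above background on only 1 J1 array. Other genes with levels as low in J1 were not measured apart, so the contrast with all genes is not read as a property of the members. The measures are descriptions without a test, and methylation itself was not measured on these arrays.

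Windows are shown for Asz1 (chr6:18109062-18109311, minus strand, 15 CpG, ratio 0.90), Rec114 (chr9:58741560-58741809, minus strand, 10 CpG, ratio 0.80), Nxf2 (chrX:134964755-134965004, minus strand, 16 CpG, ratio 1.08, the richer of its 2 windows) and Gm364 (chrX:57408899-57409148, plus strand, 10 CpG, ratio 0.58). They are printed 5′ to 3′, ending at the base before the start site, with every CpG in capitals. Asz1 and Nxf2 lie above the median of 14 CpG over all genes, and Rec114 and Gm364 lie below it but above the median of 5 over the members.
Asz1: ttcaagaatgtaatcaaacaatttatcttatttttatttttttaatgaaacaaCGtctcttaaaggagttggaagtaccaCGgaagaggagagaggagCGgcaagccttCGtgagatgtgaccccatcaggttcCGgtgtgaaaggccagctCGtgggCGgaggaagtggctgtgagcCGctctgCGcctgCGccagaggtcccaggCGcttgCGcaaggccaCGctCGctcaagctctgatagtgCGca
Rec114: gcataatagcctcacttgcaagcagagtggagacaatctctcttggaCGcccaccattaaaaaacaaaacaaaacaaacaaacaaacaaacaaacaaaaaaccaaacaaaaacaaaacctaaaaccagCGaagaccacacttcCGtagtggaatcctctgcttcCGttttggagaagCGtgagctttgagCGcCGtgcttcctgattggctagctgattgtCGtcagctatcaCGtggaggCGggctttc
Nxf2: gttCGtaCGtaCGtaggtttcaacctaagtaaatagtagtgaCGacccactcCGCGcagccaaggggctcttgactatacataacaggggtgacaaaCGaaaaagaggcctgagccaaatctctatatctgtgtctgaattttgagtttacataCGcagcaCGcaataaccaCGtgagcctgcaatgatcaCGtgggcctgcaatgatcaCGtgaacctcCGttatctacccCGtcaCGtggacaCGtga
Gm364: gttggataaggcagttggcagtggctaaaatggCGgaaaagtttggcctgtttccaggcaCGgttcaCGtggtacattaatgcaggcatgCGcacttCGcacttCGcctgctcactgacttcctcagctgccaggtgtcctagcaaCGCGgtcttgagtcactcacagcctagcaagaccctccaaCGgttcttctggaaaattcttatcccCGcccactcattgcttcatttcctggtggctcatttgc

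The clustered Magea5 (chrX:155061554-155061803) and Magea3 (chrX:154949570-154949819), both on the minus strand, are shown for contrast, since neither window holds a CpG and so no letter is in capitals. Their windows were only 31.3% identical without gaps, while those of Magea1 and Magea3 were 85.5% identical.
Magea5: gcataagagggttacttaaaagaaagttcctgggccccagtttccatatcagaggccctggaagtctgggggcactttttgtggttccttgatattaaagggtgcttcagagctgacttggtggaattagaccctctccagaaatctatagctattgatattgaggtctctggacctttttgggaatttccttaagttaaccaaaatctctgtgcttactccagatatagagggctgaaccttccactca
Magea3: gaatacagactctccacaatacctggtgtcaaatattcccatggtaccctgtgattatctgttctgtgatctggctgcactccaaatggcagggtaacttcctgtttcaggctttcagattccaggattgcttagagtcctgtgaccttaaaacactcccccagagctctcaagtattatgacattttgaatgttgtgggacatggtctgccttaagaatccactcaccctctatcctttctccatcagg

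The E-box CACGTG, the motif GCGGGA (E2F) and the motif CCGGAA (ETS) each contain a CpG and bind factors that can be sensitive to its methylation. They were searched on both strands, CACGTG being its own reverse complement, and none of the 3 contains another. CACGTG was in a window of 8 of the 63 members (12.7%) against 9.42% of all genes tested, and 5 times in the Nxf2 window shown. GCGGGA was in 5 (7.94%) against 31.0%, and CCGGAA in 7 (11.1%) against 22.1%. Over all 32851 windows of this length the shares were 6.02%, 16.9% and 12%. Those are shares of windows, whereas a gene counted if any of its windows held the motif. The members' windows also held less GC and fewer CpG, and the gene shares were not adjusted for this. The windows shown and the motifs were chosen after the values had been seen, and a match is a description of letters.

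**Figure D4:**
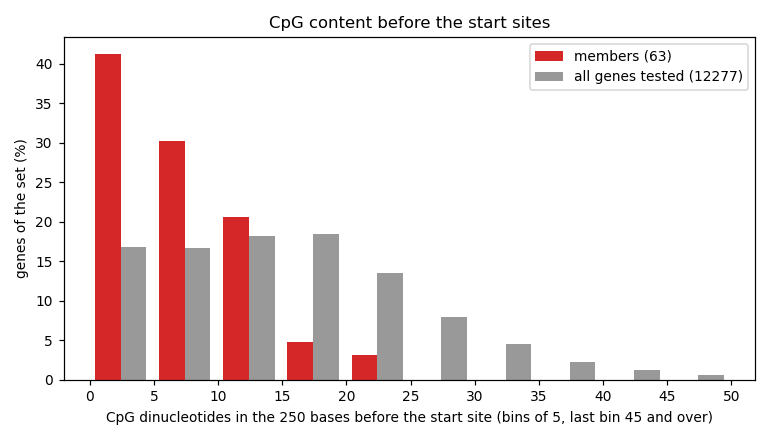
Share of genes (y axis, percent) by the number of CpG dinucleotides in the 250 bases before the RefSeq start site (x axis, bins of 5), for the 63 members with a window and the 12277 tested genes with one. The members crowd into the lowest bins, with 41.27% of them in the lowest against 16.75% of all genes, and none has 25 or more.

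Genes of other tissues made up a further share of the members. Afp, the foetal serum albumin relative of yolk sac and liver (chr5:90937781-90937840), read -6.42 and -5.91 in J1, -1.40 in DNMT1KO and -1.30 in Dnmts TKO, at least 6.53-fold and at least 7.0-fold over J1. It was the only member among 26 tested primitive endoderm markers, a list written with earlier results of these data known. Of the other 25, 9 were called higher and 3 lower in DNMT1KO against J1 (14.7% and 16.6% of all genes), and 16 higher and 2 lower in Dnmts TKO against J1 (15.6% and 16.1% of all genes). The mean level of that list was -1.42 and -1.36 in J1, between -1.88 and -1.51 in both Prdm14 lines, -1.03 and -1.22 in DNMT3BKO, -0.49 in DNMT1KO and 0.43 in Dnmts TKO. Some of its genes were higher mainly in Dnmts TKO: relative to J1, Gata6 was 0.84 above in DNMT1KO and 3.1 in Dnmts TKO, Gata4 0.20 and 2.41, and Hnf4a 2.09 and 4.16. Hnf4a was also 2.63 above J1 in J1_PRDM14OE. Others on the list lay below J1 in a Dnmt1-deficient line, such as Sox7 (-1.46 in DNMT1KO and 0.63 in Dnmts TKO) and Fst (0.82 and -1.7). Sox17 was above background in DNMT1KO and Dnmts TKO alone, at -2.85 and -0.68. The part of such cells in the Afp signal was not tested.

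Hbb-y, the embryonic beta-globin, read -4.97 and -6.02 in J1, -0.58 in DNMT1KO and -2.20 in Dnmts TKO, at least 11.5-fold and at least 3.75-fold over J1. It was the only member of 12 tested blood markers, whose mean level was -2.45 and -2.63 in J1, between -3.01 and -2.64 in the other 3 lines, -1.31 in DNMT1KO and -1.47 in Dnmts TKO. Of the other 11, 4 were called higher and 0 lower in DNMT1KO against J1, and 5 higher and 1 lower in Dnmts TKO against J1 (14.7% and 15.6% of all genes were called higher). Relative to J1, the alpha-globin Hba-a1 was 2.80 above in DNMT1KO and 2.75 in Dnmts TKO, and the progenitor marker Cd34 1.70 and 2.62. Ptprc, which marks blood cells, was -0.61 and -0.65, and Gata1, which drives red cell genes, -0.67 and -1.04. The blood list too was written with earlier results of these data known. The part of blood cells in the Hbb-y signal was not tested.

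The 5 adhesion and vessel genes among the members were Cdh5, Esm1, Icam2, Plxnd1 and Sparcl1, out of 23 tested genes on an endothelial list that was put together after the members' values had been seen. Cdh5, the cadherin of endothelial junctions (chr8:106668159-106668218), read -6.33 and -5.88 in J1, -1.50 in DNMT1KO and -2.00 in Dnmts TKO, at least 6.11-fold and at least 4.31-fold over J1. Esm1, a secreted endothelial proteoglycan, read -6.32 and -5.66 in J1, -2.01 in DNMT1KO and -1.71 in Dnmts TKO. Of the 18 genes that are not members, 6 were called higher and 2 lower in DNMT1KO against J1, and 11 higher and 3 lower in Dnmts TKO against J1 (14.7% and 15.6% of all genes were called higher). Relative to J1, Sox18 was 2.03 above in DNMT1KO and 4.40 in Dnmts TKO, Cldn5 2.18 and 2.79, the growth factor receptor Kdr -0.37 and -0.09, and the angiopoietin receptor Tek -0.33 and 0.10. The list's mean level was -1.33 and -1.40 in J1, -0.25 in DNMT1KO and 0.14 in Dnmts TKO, and the part of endothelial cells in these signals was not tested.

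A list of muscle genes, written at the same late stage, held 5 members among 16 tested: Myh3, Myl1, Cdh15, Ryr3 and Adssl1. Myh3, embryonic myosin heavy chain (chr11:66915724-66915783), read -2.39 and -1.75 in J1, -3.42 and -3.52 in J1_PRDM14OE, -4.43 and -4.45 in J1_PRDM14OE_DNMT3B, -3.04 and -2.65 in DNMT3BKO, 0.41 in DNMT1KO (5.57-fold) and 0.33 in Dnmts TKO (5.25-fold). Cdh15, the muscle cadherin, read -2.32 and -0.91 in J1, 0.53 in DNMT1KO (4.40-fold) and 0.89 in Dnmts TKO (5.65-fold). Of the 11 genes that are not members, 5 were called higher and 0 lower in DNMT1KO against J1, and 3 higher and 1 lower in Dnmts TKO against J1. Of all genes, 14.7% and 15.6% were called higher in these comparisons, and 16.6% and 16.1% lower. Relative to J1, the actins Actc1 and Acta1 were 4.47 and 3.34 above in DNMT1KO and 1.83 and 0.47 in Dnmts TKO, while Des was 0.48 above in each and Ttn 0.06 and -0.38. The list averaged -1.91 and -1.86 in J1, -0.38 in DNMT1KO and -0.88 in Dnmts TKO, and the part of muscle cells was not tested.

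Innate immune genes were represented by Zbp1, a sensor of Z-form nucleic acids, and by Naip6, of the inflammasome sensor family. Zbp1 was above background on all arrays, at -2.65 and -2.89 in J1, 1.13 in DNMT1KO (15-fold) and -0.13 in Dnmts TKO (6.25-fold). It was the only member among 27 tested interferon-response genes, a list written with earlier results of these data known. Of the other 26, 15 were called higher and 2 lower in DNMT1KO, and 10 higher and 1 lower in Dnmts TKO, each against J1 (14.7% and 15.6% of all genes were called higher). Naip6 read -6.51 and -6.12 in J1, -1.26 in DNMT1KO and -2.16 in Dnmts TKO, with no other array above background. No member was on the 12 other lists, which cover imprinted genes, 2-cell stage genes, placental gene families, trophoblast, mesoderm, neural and fibroblast markers, naive and primed pluripotency, p53 targets, major histocompatibility class I and the methylation machinery. Of 14 genes on the 2-cell list that were at least 2 above J1 in both Dnmt1-deficient lines, all 14 were also 0.5 or more above J1 in J1_PRDM14OE.

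A small number of members were already bright in wild-type cells. Gm10845, a non-coding RNA (chr14:80260429-80260488), read 3.37 and 3.41 in J1, 3.00 to 3.17 in the 6 arrays of the other 3 lines, 8.25 in DNMT1KO (29.0-fold) and 7.16 in Dnmts TKO (13.6-fold). ENSMUST00000146108, whose array description names a retroviral integrase product (chr4:62110250-62110309), read 6.42 and 6.48 in J1, 9.57 in DNMT1KO (8.70-fold) and 8.71 in Dnmts TKO (4.78-fold). The array description of S74315 names gag and env, which are retroviral genes. S74315 read 0.96 and 0.89 in J1, 5.13 in DNMT1KO (18.5-fold) and 3.86 in Dnmts TKO (7.66-fold). The probe that the array names A430078G23Rik, an old name of Arhgef18, read 6.89 and 7.03 in J1, 9.95 in DNMT1KO (7.96-fold) and 9.18 in Dnmts TKO (4.67-fold), while a second Arhgef18 probe was not above background in either line. Retroviral sequences occur in many copies, so such probes may read several loci at once. Gpx2, a glutathione peroxidase of the gut lining, read 2.98 and 2.84 in J1, 5.12 in DNMT1KO (4.61-fold) and 5.04 in Dnmts TKO (4.36-fold), and its J1_PRDM14OE and J1_PRDM14OE_DNMT3B arrays lay between 0.96 and 1.30.

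The comparison of Dnmts TKO with DNMT1KO asks whether the additional loss of Dnmt3a and Dnmt3b went with a further change. The rule did not use this contrast, but it chose the members on the values of these same arrays, and all passed the filter on dim probes through them. By limma across all 20459 genes, 20 of the 91 genes (22%) were called at an adjusted p under 0.05, against 10.4% of all genes. Of the members, 6 were higher in Dnmts TKO, where 4.94% of all genes were, and 14 were lower, where 5.46% were. The median size of the difference, in either direction, was 0.65 over the members and 0.26 over all genes. A larger share and a larger size can follow from that choice, so neither is read as a property of the members. With the replicate block 20.9% of members and 15% of all genes were called, and with the slide as a random block 29.7% and 20.8%. No array of either line has a replicate, so the error comes from the 4 groups with 2 arrays and each lone array was assumed to vary as they do. Both arrays lay on 1 slide and were scanned in the same pass.

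The largest differences below DNMT1KO were in the serpins. Serpina3m, a serine protease inhibitor of the acute phase family, read -3.30 and -4.41 in J1, 1.79 in DNMT1KO and -1.77 in Dnmts TKO, a difference of -3.57 ± 0.60 (SE of the fit, limma adjusted p = 0.0211). Its neighbour Serpina3c read -0.28 in DNMT1KO and -3.68 in Dnmts TKO (-3.40 ± 0.31, limma adjusted p = 0.00379), and Serpina3f between them, not a member, was 3.85 and 4.47 above J1 in the same lines. Rbmy was lower by -3.18 ± 0.38 (limma adjusted p = 0.00763). Ackr4, a scavenging chemokine receptor, read -1.09 in DNMT1KO and -3.75 in Dnmts TKO (-2.66 ± 0.28, limma adjusted p = 0.00522). Members already bright in J1 were also among the calls, with smaller differences: Gm10845 by -1.09 ± 0.11 (limma adjusted p = 0.00455), S74315 by -1.27 ± 0.15 (limma adjusted p = 0.0078), ENSMUST00000146108 by -0.86 ± 0.14 and Arhgef18 by -0.77 ± 0.12 (limma adjusted p = 0.0167 for each). The Arhgef18 value rests on the probe named A430078G23Rik, since the second Arhgef18 probe was not above background. Relative to J1 that probe read 2.99 in DNMT1KO and 2.22 in Dnmts TKO, and ENSMUST00000146108 read 3.12 and 2.26. Whether both probes read the same transcripts was not tested. Gpx2, also bright in J1, differed by -0.08 and was not called. Zbp1 (-1.26), Tex13b (-1.25), the unnamed probe A_55_P1986743 (-1.17), Mc3r (-1.14), Ldoc1 (-0.96) and Adssl1 (-0.80) were the remaining calls in this direction.

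Higher in Dnmts TKO were S100g, a vitamin D dependent calcium-binding protein encoded on X, Magea5, Magea3, Tuba3b, Plxnd1 and Rec114. S100g read -3.74 in DNMT1KO and -0.83 in Dnmts TKO (2.91 ± 0.34, limma adjusted p = 0.00706). Magea5 differed by 1.69 ± 0.34 (limma adjusted p = 0.035) and Magea3 by 1.34 ± 0.30 (limma adjusted p = 0.0451), while Magea8 (1.34, limma adjusted p = 0.0677) and Magea1 (1.58, limma adjusted p = 0.305) had like values that did not pass. Among X-linked members 3 were called higher and 2 lower, and among autosomal members 3 higher and 11 lower. Serpina3m, Serpina3c, Rbmy, Ackr4, S100g, Gm10845, S74315, Zbp1 and Mc3r kept their call in every alternative that tested them, while Magea3, Magea5 and Tex13b kept it in 8 of 14 and Rec114 in 5 of 14. The sizes were less stable, and the smallest differences were -1.86 for Serpina3c, -1.20 for Ackr4 and 1.36 for S100g. Without J1_PRDM14OE replicate 1, or without replicate 2, the count of calls was 12, with 2 higher and 10 lower.

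**Figure D5:**
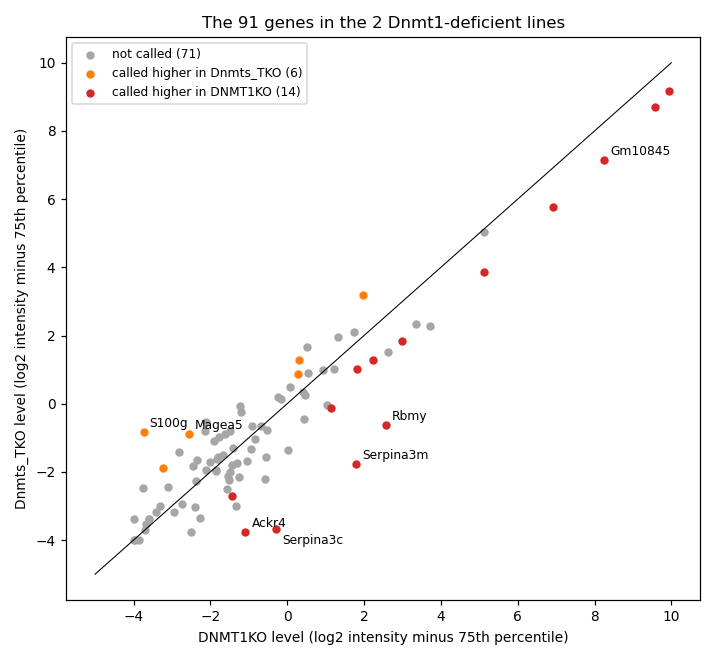
Levels of the 91 genes in DNMT1KO (x axis) and Dnmts TKO (y axis), 1 array each, as log2 intensity minus the 75th percentile, with the line of equal levels. The 14 genes called higher in DNMT1KO (red) include Gm10845 and the serpins, and the 6 called higher in Dnmts TKO (orange) include S100g and Magea5.

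The lines that were not raised differed among themselves. J1_PRDM14OE_DNMT3B against J1_PRDM14OE asks what differed between the line labelled as expressing Dnmt3b1 with Prdm14 and the line labelled as expressing Prdm14 alone. In this comparison 14 of the 91 genes (15.4%) were called by limma, 8 higher and 6 lower, against 23.2% of all genes. Only 40 members were above background on an array of either line. Among genes above background on all 10 arrays, 10 of 21 members (47.6%) were called, against 30.4% of all such genes. The lower share over the 91 genes is therefore not read as a property of the members. Of the 14 calls, 10 were above background in both lines, 1 in J1_PRDM14OE alone (Myh3, at least 1.52-fold higher there), and 3 in neither (Gm364, Rbmy and Glipr1), for which no difference is given. Each J1_PRDM14OE array was alone on its slide. In this comparison and the next, an effect of the slide and one of the group cannot be told apart. Scml2 averaged -3.87 ± 0.06 (SD, n = 2) in J1_PRDM14OE and -2.30 ± 0.28 in J1_PRDM14OE_DNMT3B, a difference of 1.58 ± 0.15 (limma adjusted p = 0.00211). That holds for the chosen probe: relative to J1 in J1_PRDM14OE it was -2.08, and the further Scml2 probes were -0.38 and -0.45. Mc3r, a melanocortin receptor of the brain, was higher by 1.44 ± 0.11 (limma adjusted p = 0.00104). Adssl1, a muscle adenylosuccinate synthase, was higher by 0.76 and Rhox10 by 0.83 (limma adjusted p = 0.00588 and 0.0476). Tuba3b was lower by -1.34 ± 0.18 (limma adjusted p = 0.00604) and Ldoc1, a leucine-zipper protein of retrotransposon origin, by -1.13 ± 0.15 (limma adjusted p = 0.00525). The calls of Scml2, Mc3r, Adssl1, Tuba3b and Ldoc1 held in all 15 alternatives, and that of Rhox10 in 5. The count was 8 without either J1_PRDM14OE replicate 1 or replicate 2, and 7 without J1_PRDM14OE_DNMT3B replicate 1.

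J1_PRDM14OE against DNMT3BKO sets the line labelled as expressing Prdm14, in which the Dnmt3b probes read lower than in J1, beside the line without Dnmt3b. Here 20 of the 91 genes (22%) were called, 8 higher and 12 lower in J1_PRDM14OE, against 41.1% of all genes. Among genes above background on all 10 arrays, 12 of 21 members (57.1%) were called, against 47.3% of all such genes. Of the 20 calls, 11 were above background in both lines, 4 in J1_PRDM14OE alone, and 5 in neither (Gm364, Nxf3, Prss38, Myl1 and ENSMUST00000103684), for which no difference is given. Scml2 (-2.12 ± 0.15, limma adjusted p = 0.000243), Bcl2l15, a relative of the Bcl2 apoptosis regulators (-1.81 ± 0.13, limma adjusted p = 0.000218), and Gpx2 (-1.37 ± 0.09, limma adjusted p = 0.000172) were lower in J1_PRDM14OE. The Scml2 value rests on the chosen probe, and the further Scml2 probes fell less in J1_PRDM14OE. Ptpn22, a lymphocyte phosphatase whose probe lay 73.6 kb from that of Bcl2l15, was above background in DNMT1KO (-3.99) and Dnmts TKO (-3.39) alone. Cdh15 (1.52 ± 0.43, limma adjusted p = 0.0344) and Tuba3b (0.96, limma adjusted p = 0.00923) were higher, and the call of Cdh15 held in 7 of 15 alternatives and that of Ctcfl in 8 of 14. Genes not above background in DNMT3BKO have a bound only. Rec114 was at least 1.96-fold higher in J1_PRDM14OE and Ctcfl at least 1.69-fold (limma adjusted p = 0.000715 and 0.0313), and no fold is given for the lens crystallin Cryge. Without J1_PRDM14OE replicate 2 the count fell to 8, and without DNMT3BKO replicate 1 to 12.

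A set of 5 members lay at least 1 below J1 in all 3 of these lines: Mc3r, Ldoc1, Rec114, Tsx and Wfdc15a. Wfdc15a, of a protease inhibitor family, ran from -5.58 in DNMT3BKO to 1.66 in Dnmts TKO, with -2.24 and -2.84 in J1. Mc3r read -0.36 and -0.37 in J1, -3.72 and -3.46 in J1_PRDM14OE, -2.09 and -2.20 in J1_PRDM14OE_DNMT3B, -2.73 and -2.65 in DNMT3BKO, 2.99 in DNMT1KO (10.2-fold) and 1.85 in Dnmts TKO (4.62-fold). Ldoc1 read -0.82 and -0.53 in J1, -2.01 and -2.09 in J1_PRDM14OE, -3.03 and -3.34 in J1_PRDM14OE_DNMT3B, -2.32 and -2.19 in DNMT3BKO, 2.23 in DNMT1KO and 1.27 in Dnmts TKO. The rule itself placed the Dnmt1-deficient lines above J1, and no share over all genes is given for readings this low in the other 3 lines. Some of the low readings were not above background on any array of the line. These were Wfdc15a in J1_PRDM14OE_DNMT3B and DNMT3BKO, Rec114 in DNMT3BKO and Tsx in J1_PRDM14OE. All 5 were chosen by these same values, so no test is given.

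Of the 91 genes, 21 had further probes on the array, 25 in all. Of the 12 further probes that were above background in both Dnmt1-deficient lines, 9 were at least 2 above J1 in both, and 11 were less than 0.5 above J1 in the other 3 lines. The further probes of Magea1 (3.84 and 4.99), Scml2 (3.95 and 3.63, and 3.13 and 2.98), Hbb-y (5.12 and 2.87) and Myh3 (2.45 and 2.42) read much like the chosen ones in DNMT1KO and Dnmts TKO. Scml2 probes parted elsewhere: relative to J1 in J1_PRDM14OE the further ones read -0.38 and -0.45, against -2.08 for the chosen one. The first of them was 0.78 above J1 in DNMT3BKO, over the ceiling of 0.5. Among these 12, Plxnd1 was the clearest disagreement, since its other probe read -0.04 in DNMT1KO and 0.45 in Dnmts TKO relative to J1 against 1.83 and 2.81 for the chosen one. Further probes of Bcl2l15, Dcdc2a, Krt12, Nxf7 and Myl1, among others, were above background in neither line and showed no rise. The second Zbp1 probe was 3.18 above J1 in DNMT1KO and 0.96 in Dnmts TKO. The second Rbmy probe was 3.81 and 1.41 above J1 in these lines, against 5.96 and 2.79 for the chosen one. These probes share the arrays of the rule and are no independent samples.

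The wild-type reference was uneven for a few members. The 2 J1 arrays differed by a median of 0.41 over the 91 genes, by over 1 for 11 genes and by over 2 for 4: Xlr5c, Pdha2 (-6.63 and -2.89), ENSMUST00000149824 (-4.80 and -2.27) and Aste1 (-4.91 and -2.80). Pdha2 is the testis form of a pyruvate dehydrogenase subunit, and it read -1.81 in DNMT1KO and -1.57 in Dnmts TKO, above both J1 arrays.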

How the data were processed

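RNA of 10 samples was amplified, labelled with Cy3 and hybridised to 1-colour Agilent arrays, per the labels. The deposited scanner files hold 1 fluorescence intensity per spot, made by Agilent Feature Extraction 10.7.3.1 per the file headers, with probe coordinates on mm9. The table of log2 values deposited by the authors matched quantile-normalized log2 intensities to within 0.246, and the sources used here do not state its exact scaling. limma is named in the submitters' processing notes.

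Members were chosen on the deposited log2 values. The members, lists and families were chosen with earlier results of these data known. Levels and tests used log2 of the processed intensity minus the 75th percentile of the array, spots of a probe averaged, outlier spots left out. A gene was tested if some group had its probe well above background on all of its arrays: 20459 genes, 12 more being dropped for missing values. All 10 arrays entered 1 fit of limma 3.58.1 (R 4.3.3, 4 residual degrees of freedom, prior 1.758), tested on simulated data, with Benjamini-Hochberg adjustment. From 243.1 to 337.3 intensity units lay at the 75th percentile, 50.03% to 56.03% of spots were well above background and 0 were saturated. Precision is limited by how few arrays there are. Chosen for naming were the 20 members with the largest smaller rise, members on a list, the largest called changes, neighbours within 100 kb and the genes nearest each threshold. Other named members were chosen after their values were seen. The values of 1 member called in J1_PRDM14OE against DNMT3BKO are not reported here. Symbols were updated through RefSeq (GRCm38.p6), which gave an ID to 78 members. Alternatives covered scaling, background correction, filters, thresholds, slide, replicate block and each replicate left out.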

Additional observations from a re-analysis of the deposited data

Results flagged for a closer look

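Dnmts TKO and DNMT1KO, measured against the same J1 arrays, differed by limma for 20 of the 91 genes (22%), against 10.4% of all genes. That test of the difference is what drew attention to these genes. The shares were 20.9% and 15% with the replicate block, and 29.7% and 20.8% with the slide as a random block. A larger share among members can follow from choosing them on these same arrays. Serpina3m (-3.57 on the log2 scale, Dnmts TKO minus DNMT1KO), Serpina3c (-3.40), Rbmy (-3.18), Ackr4 (-2.66) and S100g (2.91) had the widest gaps. All 5 kept their call at an adjusted p under 0.05 in each of the 14 alternatives that tested them. Each value rests on 1 array per line. Across the alternatives the gap ran from -3.84 to -1.86 for Serpina3c, from -2.99 to -1.20 for Ackr4 and from 1.36 to 3.28 for S100g. It ran from -4.02 to -3.01 for Serpina3m and from -3.41 to -2.85 for Rbmy. Serpina3c (-3.68) and Ackr4 (-3.75) in Dnmts TKO lay near the faintest signal scored as above background there, -4.24. S100g in DNMT1KO (-3.74) lay near its limit of -4.26.

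Probes named only by a lincRNA or a chromosome span were outside the choice of members. Of 4610 such names, 5 met the same thresholds, with medians of 3.37 in DNMT1KO and 3.14 in Dnmts TKO above J1 on the deposited scale.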

How the results depend on the processing

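The number of genes that meet the rule, 91 on the deposited table, was 30 with normexp background correction, of which 16 are among the 91. It was 48 with a rise threshold of 2.5, 146 with a ceiling of 1 and 44 when the other lines had to lie within 0.5 of J1 in either direction. On the scanner scale it was 95, of which 82 are shared, and leaving out 1 array gave 78 to 93. The median difference from J1 under normexp was 1.28 in DNMT1KO and 1.21 in Dnmts TKO. Members called in Dnmts TKO against DNMT1KO numbered 31 with quantile normalization, 39 with normexp, 9 with no filter on dim probes and 12 to 23 with 1 array left out. For J1_PRDM14OE_DNMT3B against J1_PRDM14OE the counts were 8 with normexp, 7 without the filter and 7 to 17 with 1 array left out, the lowest without J1_PRDM14OE_DNMT3B replicate 1. For J1_PRDM14OE against DNMT3BKO they were 13 without the filter, 12 of the 21 genes above background on all 10 arrays, and 8 to 23 with 1 array left out. Of all genes, 11.8%, 12.6% and 3.66% were called in Dnmts TKO against DNMT1KO with quantile normalization, normexp and no filter. For J1_PRDM14OE_DNMT3B against J1_PRDM14OE the shares of all genes were 24.6% with normexp and 9.2% without the filter. For J1_PRDM14OE against DNMT3BKO they were 21.6% without the filter and 47.3% among genes above background on all 10 arrays. With the replicate block the counts in the 3 comparisons were 19, 15 and 21, while 15%, 32.8% and 49.6% of all genes were called. With the slide as a random block they were 27, 12 and 15, beside 20.8%, 22.7% and 40.5%. For Dnmts TKO against DNMT1KO the members' share was thus 1.39 and 1.43 times that of all genes, against 2.12 times without a block. Same-numbered arrays deviated together weakly, with correlations from 0.096 to 0.230 across genes, so the numbers were not taken to pair samples. No called member changed direction under any alternative run. The median of all genes in DNMT1KO against J1 was -0.133 on the main scale and -0.021 with normexp. The cause of these shifts was not tested.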
